A study of Mus musculus with 35 samples.

Results

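Splenic type 1 conventional dendritic cells (cDC1) from 5 wild-type mouse samples taken 5 h after poly IC did not carry the same amount of interferon-induced RNA. The 5 arrays were ordered by the mean log2 value of Ifit1, Ifit2, Ifit3, Oasl1 and Rsad2 minus the median of the array. The 3 highest (WT arrays 2, 3 and 5, here the high arrays) are set beside the 2 lowest (WT arrays 1 and 4, here the low arrays), out of 35 arrays in the series. Both sides share the labelled genotype Mycl+/+, an intraperitoneal dose of 100 µg of poly IC, the sort as cDC1 and the normalization set, and the labels give no difference between them beyond the replicate number. The 5 arrays labelled Mycl GFP/GFP (Mycl KO, a GFP allele at both copies of Mycl) had the same treatment in the same set and were not ranked. A further 5 wild-type arrays from steady state, in set 2 of the titles, give resting levels. The arrays are labelled as biological replicates, without word on whether each came from its own mouse, and age and strain are not in the labels.

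The split was made from measured values, so high and low are not groups of the study's design. Every gene of the 5 arrays counts as used by it. The values below are therefore a description, with each array given, and no mean, error or test was computed across the split. A gene's gap is the distance on the log2 scale between the nearest values of both sides. It is positive where all 3 high arrays lay above both low arrays, negative where they lay below, and 0 where the sides overlapped. A gene is called higher or lower at a gap of 1, which is a 2-fold distance between the closest arrays.

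Poly IC is a synthetic double-stranded RNA. It is sensed in endosomes by TLR3, which cDC1 express strongly, and in the cytosol by RIG-I-like receptors. Both routes lead to type I interferon, which signals through the receptor IFNAR and turns on interferon-stimulated genes. Activated cDC1 then raise costimulatory molecules, cytokines and the chemokine receptor CCR7, and move toward T cells.

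The ranking score was 5.70, 5.65 and 6.0 on WT arrays 2, 3 and 5, against 1.68 and 2.95 on WT arrays 1 and 4. The third and the fourth array in the order were thus 2.71 apart, while the 3 high arrays spanned 0.35 and the low arrays 1.26. Ifit1, an antiviral protein that binds viral RNA, read 10.83, 10.82 and 11.25 on the high arrays, against 6.09 and 7.29 on the low arrays. The low arrays also differed from each other, with array 4 above array 1 in all 5 ranking genes. The same score lay between 5.78 and 6.19 on the 5 Mycl KO arrays, none of which read like a low array. These genes set the order and are left out of all counts that follow.

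**Figure D1:**
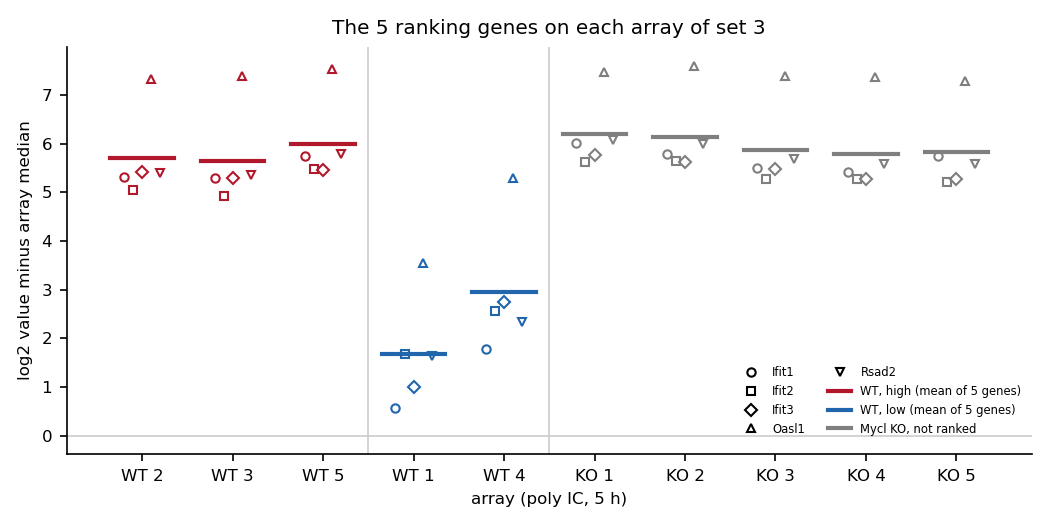
Log2 value minus array median (y axis) of the 5 ranking genes on the 10 arrays of set 3 (x axis), with symbols for genes and a bar for their mean on each array. WT arrays 1 and 4 have means of 1.68 and 2.95, and the other 8 arrays lie between 5.65 and 6.19.

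On the wild-type resting arrays the score was 0.15 to 0.46, which puts both low arrays above rest and far below the high arrays. Set 2 was normalized separately from set 3, so this is a comparison of levels and carries no test. The sets also differed in sex-linked transcripts. Xist, the RNA that coats the inactive X chromosome, read 4.15 to 4.29 on the high arrays, 4.20 and 4.38 on the low arrays, 4.05 to 4.44 on the KO arrays and 10.47 to 10.61 on the resting arrays. The Y-linked demethylase Kdm5d read 6.83 to 6.85, 6.98 to 7.33, 6.71 to 6.95 and 3.54 to 3.84 in the same order. These genes set all 10 arrays of set 3 apart from the resting arrays. Within set 3 Xist overlapped between the sides, and Kdm5d was slightly lower on the high arrays, by a gap of -0.14.

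Mycl, the MYC family member of dendritic cells, read 9.36, 9.03 and 9.31 on the high arrays, against 9.66 and 9.81 on the low arrays. It was thus present on all 5 wild-type arrays and somewhat lower on the high ones, by a gap of -0.29. On the arrays labelled KO it read 5.84, 5.99, 8.87, 5.52 and 6.14, so library 3 goes against its label. Its ranking score of 5.86 lies among those of the other 4 KO libraries.

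Of 14214 genes that passed the filter on low values, 269 (1.89% of them) were higher on the high arrays and 67 (0.471%) were lower. With array 4 left out the counts were 441 and 256, and with array 2 left out the lower count was 101. Any gap above 0 was met by 22.6% of genes upward and 33.0% downward, with 3215 and 4692 genes. Array correlations over all transcript clusters, a description in which most clusters are shared background, were 0.994 to 0.995 within the high arrays and 0.990 between the low arrays, against 0.976 to 0.984 across the split. The KO arrays correlated at 0.988 to 0.993 with the high arrays and at 0.972 to 0.983 with the low arrays.

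The widest gaps upward belonged to signalling proteins as well as classical antiviral genes. Tnfsf15, a TNF family cytokine, read 9.81, 9.88 and 10.18 on the high arrays, against 6.50 and 6.57 on the low arrays, a gap of 3.24. Rtp4, an interferon-induced chaperone of membrane receptors, read 9.14, 9.11 and 9.46, against 5.35 and 5.94 on the low arrays. Il23r, a receptor chain for interleukin 23, read 8.11, 8.23 and 8.67, against 4.23 and 5.23 on the low arrays. In each of these 3 genes the high arrays lay close together. That no low array came near them follows from the choice of the widest gaps.

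The rest of the 10 widest gaps upward ran from 2.49 to 2.71. Fas, the death receptor, read 8.49, 8.77 and 8.79 on the high arrays, against 5.79 and 5.71 on the low arrays. Il27, a cytokine subunit that acts on T cells, read 8.96, 9.10 and 9.43, against 6.14 and 6.47 on the low arrays. The transcript cluster of Mir155 read 10.08, 10.02 and 10.25, against 6.99 and 7.35 on the low arrays. miR-155 is a microRNA induced on activation of myeloid cells and lymphocytes. The cluster reads the precursor transcript, so the level of the mature forms is not known from it. Gbp5, Mx2, Ifi206 and Heatr9 complete the 10, and the first 3 of them are interferon-inducible. Both mature forms of the microRNA are shown because the cluster stands among the widest gaps, with the seed (bases 2 to 8) in capitals, from RefSeq on GRCm38.p6, chromosome 16.
mmu-miR-155-5p: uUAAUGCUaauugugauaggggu
mmu-miR-155-3p: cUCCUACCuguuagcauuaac

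Interferon-stimulated genes were higher on the high arrays almost throughout. Of 60 listed genes 50 were measured and 49 passed the filter, and 31 of these had a gap of at least 1 upward and 0 downward, beside 1.89% and 0.471% of all genes. A gap of any size upward was seen in 48 of 49. The median gap was 1.21, against 0 over all genes that passed the filter. Interferon induces these genes and the ranking genes alike, and nothing is read from the count beyond the order itself. The exception among the 49 was Trim21, a cytosolic antibody receptor, whose sides overlapped, with 7.23 on array 1 and 6.80 on array 4.

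The mean level of the 50 measured interferon-stimulated genes was 9.88, 9.85 and 10.06 on the high arrays, against 7.77 and 8.67 on the low arrays. Ifi213, of the PYHIN family of nucleic acid sensors, read 8.56, 8.22 and 8.98, against 4.75 and 5.89 on the low arrays. Slfn1, a member of the Schlafen family, read 9.39, 9.30 and 9.50, against 5.53 and 7.26. Parp14, an ADP-ribosyltransferase, read 10.49, 10.53 and 10.72, against 8.27 and 8.41 on the low arrays. The list mean lay between 9.85 and 10.22 on the KO arrays, in the range of the high arrays or slightly above.

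Interferon-inducible GTPases attack the vacuoles of intracellular pathogens or block viral replication. All 9 members measured of 18 listed were higher, beside 1.89% of all genes, with gaps of 1.15 to 2.68. Interferon induces them and the ranking genes alike, so nothing is read from this count beyond the order itself. Gbp5 read 10.82, 11.00 and 11.08 on the high arrays, against 8.14 and 7.88 on the low arrays. Mx2 read 8.15, 7.96 and 8.56, against 5.38 and 5.17. Gbp4 read 11.42, 11.46 and 11.53, against 9.22 and 9.31, and Mx1 read 9.17, 9.26 and 9.47, against 6.70 and 7.30 on the low arrays. The immunity-related GTPase Iigp1 read 7.65, 7.43 and 7.96, against 5.85 and 5.70. In Gbp5, Mx2 and Iigp1 the low array 4 lay below the low array 1, the reverse of their order in the ranking genes.

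The 250 bases before the RefSeq start of 4 genes are printed on GRCm38.p6, 5′ to 3′ on the strand of the gene. They are shown because these genes were higher on the high arrays and hold the letters of the interferon-stimulated response element, GAAANNGAAA, on either strand, which are in capitals. Ifi206, Gbp5 and Stat4 have the widest gaps among named genes that hold the letters. Oas3, which makes the second messenger that activates RNase L, was added after its values were seen, because array 4 lay nearer the high arrays in it.
Ifi206, chr1:173491319-173491568, minus strand: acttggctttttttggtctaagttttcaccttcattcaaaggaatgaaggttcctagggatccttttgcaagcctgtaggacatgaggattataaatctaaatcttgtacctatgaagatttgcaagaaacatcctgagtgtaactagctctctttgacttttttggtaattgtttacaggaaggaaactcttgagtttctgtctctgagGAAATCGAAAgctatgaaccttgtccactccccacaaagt
Gbp5, chr3:142496684-142496933, plus strand: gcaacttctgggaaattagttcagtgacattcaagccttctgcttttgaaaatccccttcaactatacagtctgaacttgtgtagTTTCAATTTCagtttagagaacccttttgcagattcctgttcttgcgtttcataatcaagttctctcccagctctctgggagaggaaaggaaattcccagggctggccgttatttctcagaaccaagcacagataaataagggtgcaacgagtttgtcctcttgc
Stat4, chr1:52007990-52008239, plus strand: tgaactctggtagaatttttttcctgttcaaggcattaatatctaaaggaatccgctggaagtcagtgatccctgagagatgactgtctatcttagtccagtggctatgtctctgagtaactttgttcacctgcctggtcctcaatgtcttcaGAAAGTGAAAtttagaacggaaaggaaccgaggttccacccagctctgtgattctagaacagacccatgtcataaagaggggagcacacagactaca
Oas3, chr5:120777660-120777909, minus strand: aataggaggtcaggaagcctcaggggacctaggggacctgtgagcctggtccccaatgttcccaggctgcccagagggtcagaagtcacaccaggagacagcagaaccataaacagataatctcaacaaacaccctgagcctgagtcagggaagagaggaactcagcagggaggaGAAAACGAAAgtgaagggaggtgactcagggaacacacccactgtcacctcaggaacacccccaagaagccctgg

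The match begins 40 bases before the start in Ifi206, 165 in Gbp5, 97 in Stat4 and 75 in Oas3. A promoter entry was found for 211 of the 269 higher genes, and 24 of these (11.4%) held the letters. Of the 67 lower genes 53 had an entry and 0 held them. Among all measured genes with an entry the share was 3.40% (531 of 15614), and among the interferon-stimulated genes it was 13 of 40. The E-box letters CACGTG, to which MYC and MAX bind, stood in 21 of the 211 higher genes, in 7 of the 53 lower genes and in 8.11% of all measured genes with an entry. A match is a description of the letters and does not show that a factor binds there.

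Among genes of RNA sensing and interferon induction, the cytosolic sensors had the widest gaps. Of 19 measured members, which all passed the filter, 3 were higher and 0 lower by a gap of 1, beside 1.89% and 0.471% of all genes. Ddx58, the sensor RIG-I, read 9.63, 9.50 and 10.06 on the high arrays, against 5.72 and 7.45 on the low arrays. Ifih1, the sensor MDA5, read 10.45, 10.48 and 10.72, against 7.98 and 9.07. Zbp1, a sensor of Z-form nucleic acid, read 11.49, 11.38 and 11.60, against 8.37 and 10.35 on the low arrays.

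Tlr3, Ifnar1 and Mavs had narrower gaps than Ddx58, Ifih1 and Zbp1, and were looked up after the values were seen. In the same list Dhx58 had a gap of 0.64 and Irf3 one of -0.30. Tlr3 read 9.90, 9.77 and 9.69 on the high arrays, against 10.06 and 10.58 on the low arrays. Its transcript thus lay at the higher end on both low arrays. The part of sensing in the split was not tested. The interferon receptor chain Ifnar1 read 9.16, 9.06 and 9.20, against 9.04 and 8.80, and the adaptor Mavs overlapped between the sides. Ifnb1, which encodes interferon beta, read 6.28, 6.15 and 6.80, against 5.43 and 5.67, a gap of 0.48. On the KO arrays Ifnb1 read 7.13 to 8.31, above all 5 wild-type arrays.

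Among JAK, STAT and SOCS genes, a list not confined to the interferon receptor, 4 of 16 were higher and 0 lower, beside 1.89% and 0.471% of all genes. Stat2 read 11.42, 11.43 and 11.67 on the high arrays, against 9.53 and 10.19 on the low arrays. Usp18, which shuts the interferon receptor off, read 11.20, 11.18 and 11.44, against 8.51 and 9.76. Stat4, a transducer of interleukin 12 and type I interferon signals, read 8.93, 8.86 and 9.16, against 6.27 and 6.44 on the low arrays. Socs2, a feedback inhibitor of cytokine receptors, read 10.46, 10.62 and 10.71, against 8.0 and 8.51.

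Among 19 transcription factors of interferon and NF-kappaB responses, 3 were higher, beside 1.89% of all genes, and 17 had some gap upward, beside 22.6%. Relb, the NF-kappaB subunit of mature dendritic cells, read 10.27, 10.31 and 10.51 on the high arrays, against 8.80 and 8.88 on the low arrays. Irf1 read 9.81, 9.98 and 10.07, against 8.24 and 8.47, and Batf read 7.81, 7.94 and 7.80, against 6.76 and 6.44. Downward gaps were seen in the other 2, the cDC1 lineage factors Irf8 and Batf3. Irf8 read 11.34, 11.43 and 11.38, against 11.72 and 11.91, and Batf3 read 9.37, 9.32 and 9.24, against 9.61 and 9.68 on the low arrays.

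Some of the molecules that a dendritic cell shows to T cells were higher on the high arrays. Of 20 costimulatory and inhibitory ligands 19 passed the filter, and 7 were higher and 0 lower, beside 1.89% and 0.471% of all genes. Some gap upward was seen in 16 and downward in 2, and the median gap was 0.78. Cd40, which receives help from T cells, read 11.33, 11.51 and 11.51 on the high arrays, against 9.62 and 9.85 on the low arrays. Cd274, the inhibitory ligand PD-L1, read 10.74, 10.77 and 10.84, against 9.13 and 9.29. Cd200, another inhibitory ligand, read 9.78, 9.97 and 10.18, against 7.0 and 7.35, and Tnfsf9, the ligand of 4-1BB, read 9.40, 9.60 and 9.60, against 7.11 and 7.61 on the low arrays.

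The classical B7 molecules had narrower gaps. Cd80 read 11.51, 11.49 and 11.60 on the high arrays, against 10.47 and 10.64 on the low arrays. Cd86 read 12.35, 12.26 and 12.34, against 12.07 and 11.97, a gap of 0.19. The low arrays therefore held high levels of both transcripts on this scale. On the resting arrays Cd86 read 11.27 to 11.35, in the separately normalized set.

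**Figure D2:**
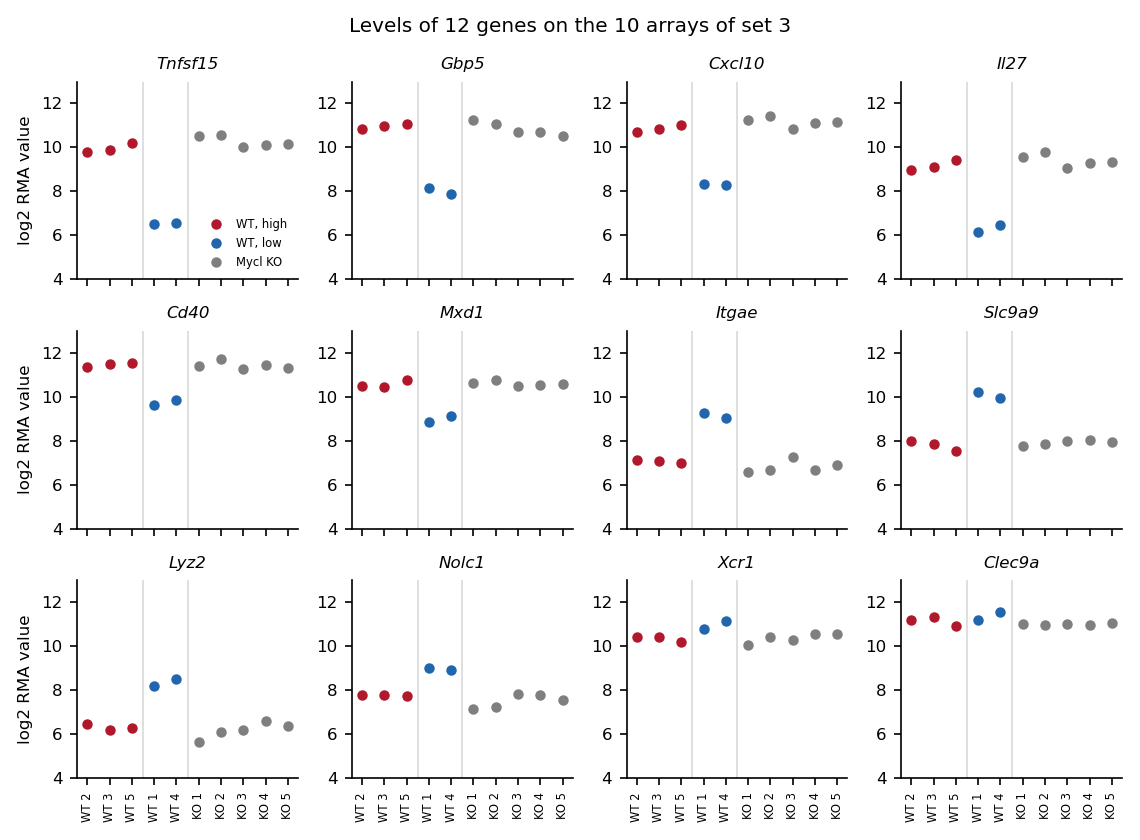
Log2 RMA values (y axis) of 12 genes on the 10 arrays of set 3 (x axis), with 1 point for each array. In Tnfsf15, Gbp5, Cxcl10, Il27, Cd40 and Mxd1 the 3 high WT arrays lie above the 2 low ones, in Itgae, Slc9a9, Lyz2, Nolc1 and Xcr1 below them, and Clec9a overlaps.

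Cytokine transcripts followed the split in part. Of 20 measured genes 18 passed the filter, and 4 were higher and 0 lower, beside 1.89% and 0.471% of all genes. Il15, which sustains memory T and NK cells, read 9.15, 9.29 and 9.41 on the high arrays, against 6.62 and 7.45 on the low arrays, and its presenting receptor Il15ra read 9.24, 9.29 and 9.53, against 7.04 and 7.35. Il6 read 7.26, 7.43 and 7.67, against 5.21 and 5.73. Il12b, the p40 chain of interleukin 12, read 11.04, 10.98 and 11.02, against 9.89 and 10.60, so that array 4 came close to the high arrays.

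Of 18 chemokines and receptors that passed the filter, 6 were higher and 0 lower, beside the same 1.89% and 0.471%. Cxcl10, a ligand of the receptor CXCR3, read 10.72, 10.82 and 11.01 on the high arrays, against 8.35 and 8.30 on the low arrays. Cxcl11 read 7.0, 7.07 and 7.20, against 5.46 and 5.66, and Cxcl9 read 12.00, 11.97 and 12.06, against 11.11 and 11.65. The 3 ligands of the same receptor thus had gaps of 2.38, 1.34 and 0.32. Ccl5 read 11.06, 11.21 and 11.33, against 7.81 and 9.39, the widest distance between the low arrays among the chemokines named here.

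Genes of the migratory programme, which cDC1 also turn on without infection, had 9 of 18 members higher and 0 lower, beside 1.89% and 0.471% of all genes, with a median gap of 1.01. Ccr7, the receptor that guides dendritic cells toward T cell zones, read 12.52, 12.55 and 12.59 on the high arrays, against 11.06 and 11.32 on the low arrays. Fscn1, an actin bundling protein, read 11.21, 11.31 and 11.82, against 8.51 and 9.31. Ccl22, which attracts regulatory T cells, read 8.93, 9.07 and 9.03, against 7.30 and 7.80 on the low arrays.

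Genes of cell death and survival were higher in 5 of 18 cases, with 0 lower, beside 1.89% and 0.471% of all genes. Cflar, an inhibitor of caspase 8, read 11.13, 11.28 and 11.27 on the high arrays, against 9.04 and 9.19 on the low arrays. Casp4, the sensor caspase for cytosolic lipopolysaccharide known as caspase-11 in mouse, read 10.02, 10.17 and 10.25, against 8.37 and 8.43. Bcl2l1, the survival factor BCL-XL, read 8.53, 8.83 and 8.96, against 6.94 and 7.44. Fas is a member of this list too.

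Antigen presentation genes had no member with a gap of 1 in either direction, beside 1.89% upward and 0.471% downward of all genes. Of 17 genes of class I loading 13 had some gap upward, beside 22.6% of all genes, with a median of 0.30. Nlrc5, the transactivator of class I genes, read 12.44, 12.46 and 12.42 on the high arrays, against 11.63 and 11.66 on the low arrays, and H2-T24 read 7.92, 7.74 and 8.22, against 6.08 and 6.98. Of 10 class II genes 6 had some gap downward and 0 upward, beside 33.0% and 22.6% of all genes. Ciita, the transactivator of class II genes, read 9.16, 9.14 and 8.91, against 10.05 and 10.12, and H2-Ob, which modulates class II peptide loading, read 9.41, 9.44 and 9.23, against 10.29 and 10.43 on the low arrays.

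The widest gaps downward belonged to genes of an ion exchanger, an integrin and a lysozyme. Slc9a9, an endosomal sodium and proton exchanger, read 7.97, 7.85 and 7.55 on the high arrays, against 10.20 and 9.95 on the low arrays, a gap of -1.97. Itgae, the integrin CD103 of cDC1, read 7.12, 7.05 and 6.99, against 9.27 and 9.01. Lyz2, the lysozyme of myeloid cells, read 6.46, 6.17 and 6.28, against 8.18 and 8.49 on the low arrays. Both low arrays stood together in these genes, and so did the high arrays. The distance between the sides follows from the choice of the widest gaps.

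The other 7 of the 10 widest gaps downward were Camk1d, Entpd1, Ocstamp, Tnfrsf21, Spint1, Mlec and Ano6, with gaps from -1.57 to -1.40. Entpd1, the ectonucleotidase CD39, read 5.20, 5.20 and 5.12 on the high arrays, against 6.77 and 7.43 on the low arrays. Tnfrsf21, death receptor 6, read 7.24, 7.31 and 7.24, against 8.81 and 8.94. On the KO arrays Entpd1 read 5.44 to 5.98 and Slc9a9 7.75 to 8.03, nearer the high wild-type arrays than the low ones.

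All 28 measured cDC1 identity genes passed the filter. Of these 4 were lower and 1 was higher, beside 0.471% and 1.89% of all genes. Some gap was seen downward in 21 and upward in 3, beside 33.0% and 22.6%. The lower ones were Itgae, Septin3, Pianp and Hepacam2. The higher one was Ly75, the uptake receptor DEC-205, with 10.94, 11.01 and 11.13 on the high arrays, against 9.62 and 9.72 on the low arrays. Xcr1, the chemokine receptor that defines cDC1, read 10.43, 10.39 and 10.18, against 10.75 and 11.12. Clec9a, the receptor for dying cells, read 11.20, 11.32 and 10.91, against 11.18 and 11.56, and Cd8a read 10.31, 10.23 and 10.20, against 9.71 and 10.26 on the low arrays. The defining markers were well above the filter level of 4.70 to 4.74 on every wild-type array, as the label cDC1 has it.

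Factors that build ribosomes lay lower on the high arrays without exception among those measured. All 58 measured of 60 listed genes had a gap downward, beside 33.0% of all genes, 7 of them by at least 1, beside 0.471%, and the median gap was -0.76. Nolc1, a nucleolar phosphoprotein, read 7.77, 7.76 and 7.71 on the high arrays, against 9.0 and 8.92 on the low arrays. Nop58, a core protein of box C/D ribonucleoproteins, read 7.49, 7.38 and 7.15, against 8.62 and 8.68. Polr1a, the largest subunit of RNA polymerase I, read 6.83, 6.78 and 6.60, against 8.16 and 7.94 on the low arrays. Dkc1, the pseudouridine synthase of box H/ACA particles, read 6.86, 6.88 and 6.51, against 8.45 and 7.95.

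The mean level of these 58 genes was 7.20, 7.16 and 7.10 on the high arrays, against 8.17 and 7.96 on the low arrays. On the KO arrays it was 6.79, 6.95, 7.23, 7.17 and 6.96. Library 3 thus lay above the high wild-type arrays, KO array 4 among them and the other KO arrays below them. Of 31 cytosolic ribosomal proteins 0 were lower by a gap of 1, beside 0.471% of all genes. Some gap downward was seen in 15 and upward in 1, beside 33.0% and 22.6%. Rpl14 had the widest gap of them, with 9.76, 9.62 and 9.75, against 10.06 and 9.99 on the low arrays.

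In the MYC and MAX network 1 of 13 genes was higher and 0 lower by a gap of 1, beside 1.89% and 0.471% of all genes. Some gap was seen upward in 3 and downward in 5, beside 22.6% and 33.0%, and the median gap was 0. Mxd1, a partner of MAX that represses MYC targets, read 10.49, 10.46 and 10.76 on the high arrays, against 8.86 and 9.14 on the low arrays. Max read 9.74, 9.72 and 9.83, against 9.30 and 9.44. Myc read 6.62, 6.73 and 6.77, against 6.46 and 6.68, with overlap. Mxd1 was thus higher and Mycl slightly lower on the high arrays, and Mxd1 read 10.50 to 10.76 on the KO arrays.

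Growth and metabolism showed narrower gaps. Genes of DNA replication and mitosis had 24 of 39 members with some gap downward and 0 upward, beside 33.0% and 22.6% of all genes. A gap of 1 was reached by 0 of them, beside 1.89% upward and 0.471% downward. The widest was Mcm3 at 8.10, 8.07 and 7.94, against 8.95 and 9.03 on the low arrays. Oxidative phosphorylation had 26 of 33 downward and 1 upward by any gap, beside the same 33.0% and 22.6%. Again 0 reached a gap of 1, beside the same 1.89% and 0.471%. In sterol and fatty acid synthesis 10 of 21 had some gap downward and 3 upward, beside 33.0% and 22.6% of all genes. Lower by 1 was 1 of them, beside 0.471%, the fatty acid synthase Fasn, at 7.99, 8.03 and 7.82, against 9.79 and 9.27. Among 15 glycolysis genes 8 had some gap downward and 2 upward, beside the same 33.0% and 22.6%, with a median of -0.05. Only 1 of them was higher by a gap of 1, beside 1.89% of all genes. It was the regulatory enzyme Pfkfb3, at 11.16, 11.18 and 11.39, against 9.69 and 9.91 on the low arrays.

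Stress lists had members on both sides. Of 26 immediate early and dissociation genes, which mark handling of the tissue, 11 had some gap upward and 9 downward, beside 22.6% and 33.0% of all genes, and the median was 0. By a gap of 1, 1 was higher and 0 were lower, beside 1.89% and 0.471% of all genes. The higher one was Ppp1r15a, which reverses the stress block on translation. Ppp1r15a read 9.99, 10.12 and 9.91 on the high arrays, against 8.89 and 8.75 on the low arrays. ATF4 stress genes had 0 of 15 higher and 0 lower by a gap of 1, beside the same 1.89% and 0.471%. Some gap was seen upward in 4 and downward in 7, beside the same 22.6% and 33.0%.

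**Figure D3:**
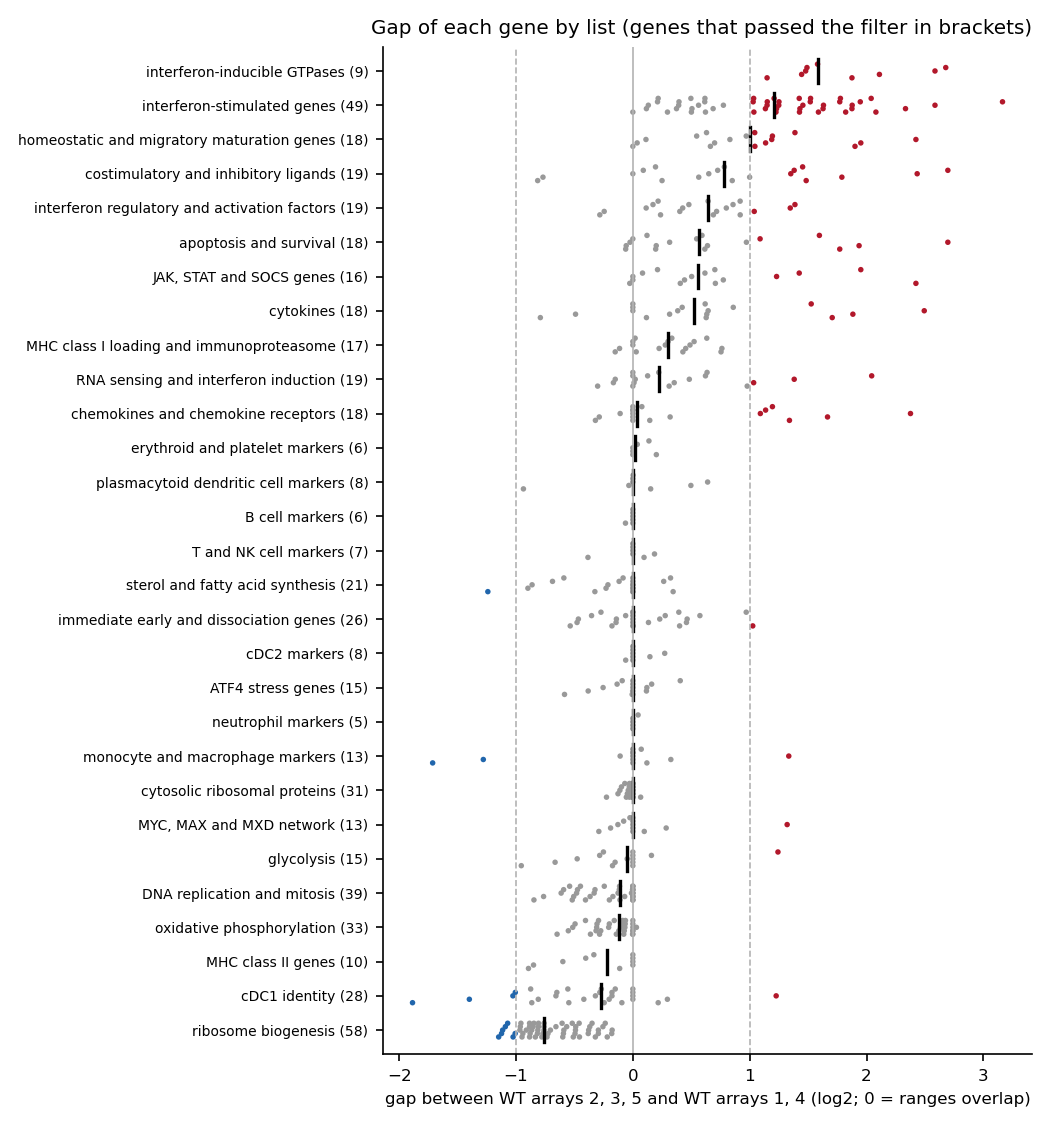
Gap of every gene that passed the filter (x axis, log2) by gene list (y axis, number of genes in brackets), with red points at or above 1, blue points at or below -1 and a black bar at the median of the list. Interferon-inducible GTPases (median 1.58) and interferon-stimulated genes (1.21) lie farthest right, and ribosome biogenesis (-0.76) farthest left.

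The low arrays were not alike, and array 4 stood between array 1 and the high arrays to a degree that depended on the gene. Genes were chosen by the high arrays and array 1 alone, and the position of array 4 was set to 0% at array 1 and 100% at the nearest high array. This measure was added after the values were seen. Over 441 genes higher than array 1 by at least 1, the median position was 24.1% (quartiles 10.1% and 44.8%). Over 259 genes lower than array 1 by as much it was 33.0%.

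Among interferon-stimulated genes the median position was 42.0% over 43 genes, with 6 of them past 75% and 11 under 25%. Oas3 read 10.27 on the lowest of the high arrays, against 6.15 on array 1 and 9.02 on array 4. Isg20, an antiviral exonuclease, read 11.55 on the lowest high array, against 7.96 on array 1 and 10.93 on array 4. Irf7, the factor that amplifies interferon production, read 12.95, against 10.57 and 12.33, and Bst2, the tetherin that holds virus particles at the membrane, read 11.90, against 9.70 and 11.40. These 4 were chosen after their values were seen.

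Array 4 lay closer to array 1 in most interferon-inducible GTPases. The position was 13.4% at the median of the 9 GTPases, with 8 of them under 25%, and array 4 was above array 1 in 6 of the 9. Costimulatory and inhibitory ligands were at 13.4% over 9 genes, with 8 under 25%. Cxcl10, Fas, Gbp5, Mx2 and Ifi206 lay at or below array 1, and Tnfsf15 and Parp14 at 2.3% and 5.99%. These genes stand among those with wide gaps from both low arrays. A wide gap requires a low value on array 4, so nothing is read from their positions. Ribosome biogenesis genes were at 27.2% over 25 genes, all of them at or under 75%. Array 4 thus lay nearer to the high arrays than to array 1 in Oas3, Isg20, Irf7 and Bst2, which were picked after their values were seen. It lay nearer to array 1 in the GTPases and in most ligands measured this way.

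**Figure D4:**
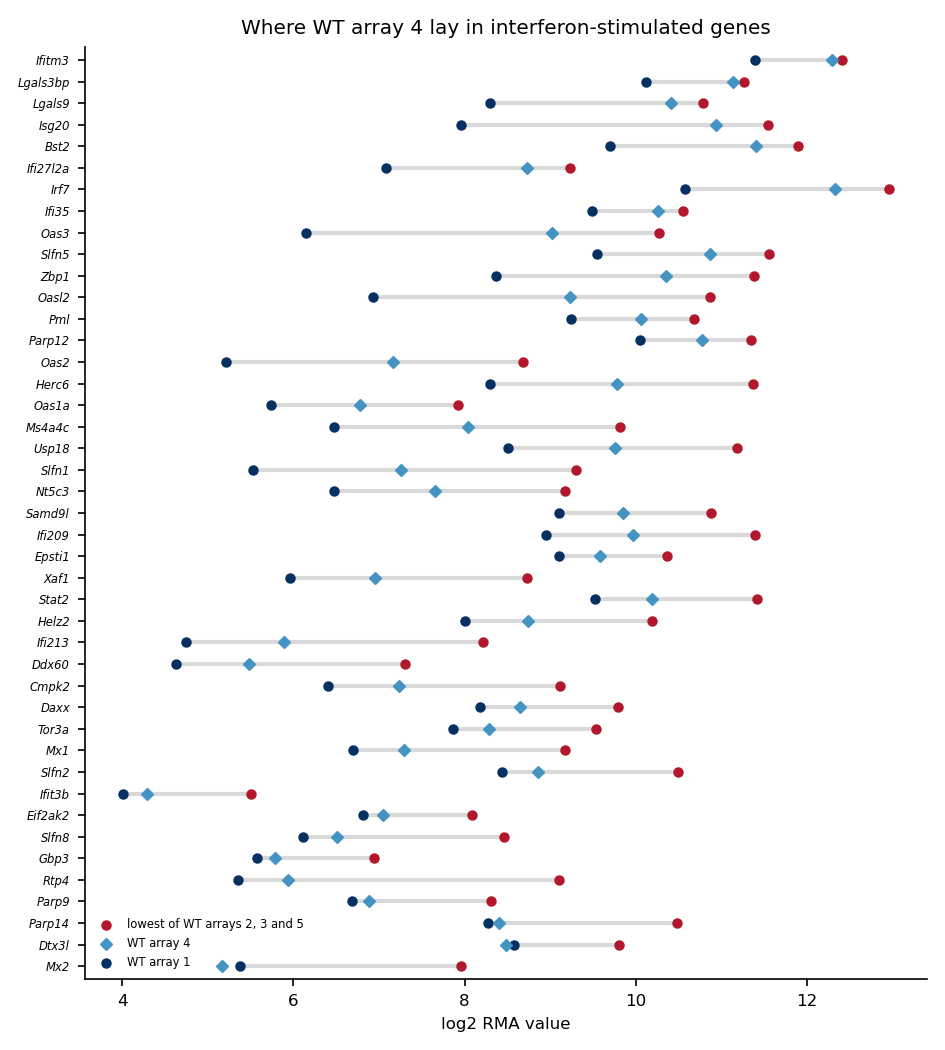
Log2 RMA value (x axis) of the 43 interferon-stimulated genes that were higher on the lowest high WT array than on WT array 1 by at least 1 (y axis, ordered by the position of array 4). The diamond of array 4 lies near the red point of the high arrays in Ifitm3, Isg20 and Bst2 and beside the dark point of array 1 in Mx2, Dtx3l and Parp14.

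Within the sides, the 269 higher genes had a median range of 0.25 over the high arrays and 0.26 over the low arrays. Array 5 was the highest of the high arrays in 222 of these genes. Over the 67 lower genes the median ranges were 0.18 and 0.21.

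The Mycl KO arrays were not used by the ranking or by the choice of genes. Over the 269 higher genes the median range across the 5 KO arrays was 0.54, against 0.31 over all genes that passed the filter. The median level of the 269 genes was 8.91 to 9.35 on the KO arrays, beside 9.04, 9.10 and 9.35 on the high wild-type arrays and 7.08 and 7.44 on the low ones. Over the 67 lower genes it was 6.90 to 7.43 on the KO arrays, beside 7.25, 7.26 and 7.21 on the high arrays and 8.73 and 8.63 on the low ones. Library 3, labelled KO, lay inside these KO ranges of levels and of the ranking score, which are the same without it.

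Listed markers of other spleen cells lay on both sides of the filter level, and those named here were picked after their values were seen. Below it, Cd79a of B cells read at most 4.39, Cd3d of T cells 4.23, Ncr1 of NK cells 4.00, Clec10a of cDC2 4.49, Adgre1 of macrophages 4.44 and Ly6g of neutrophils 3.91 over the 5 wild-type arrays. Above it, Ms4a1 of B cells read up to 6.13, Cd3e of T cells 5.73, Siglech of plasmacytoid cells 5.53 and Csf1r of macrophages 5.48. Klrd1 of NK cells read up to 6.26 and Ngp of neutrophil granules up to 9.07. In the cDC2 list Clec12a, Ltb and Dtx1 read up to 9.37, 7.02 and 6.40. Esam, Cd4, Cd209a and Itgam of the same list read at most 5.98, 5.43, 4.97 and 4.86. In such bulk samples, fewer cells of a type and less RNA per cell cannot be told apart. In the T and NK cell list 5 to 6 of 13 measured markers lay below that level on every array of set 3, in the B cell list 4 of 10 and in the cDC2 list 3 to 4 of 11. The summed log2 level of cDC2 markers was 60.4 to 60.7 on the high arrays, against 59.7 to 60.2 on the low arrays. That of B cell markers was 50.4 to 51.2, against 51.1 to 51.8, and that of T and NK cell markers 66.1 to 66.9, against 64.9 to 66.0.

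The summed level of neutrophil markers was lowest on array 1 among the wild-type arrays and did not follow the split. The summed level of 10 measured markers was 57.1 to 60.3 on the high arrays, against 50.9 on array 1 and 58.1 on array 4. It also varied between the KO arrays, from 55.2 to 64.2. The median range of the members that passed the filter was 2.20 over the KO arrays and 1.94 over the wild-type arrays. S100a8, a calcium-binding protein of neutrophils, read 7.46, 7.92 and 7.33 on the high arrays, against 5.59 on array 1 and 7.29 on array 4. Of the monocyte and macrophage list 13 of 16 measured genes passed the filter. Of these 1 was higher and 2 were lower, beside 1.89% and 0.471% of all genes. Some gap was seen upward in 4 and downward in 3, beside 22.6% and 33.0%, and the median gap was 0. The summed levels of the list were 91.1 to 91.8 on the high arrays, against 91.9 to 93.1 on the low arrays. The higher one was Spic, the factor of red pulp macrophages, at 8.83, 8.94 and 8.81, against 7.13 and 7.48. The lower ones were Lyz2 and Cd14. Cd14, a coreceptor for lipopolysaccharide, read 6.89, 6.87 and 6.84, against 8.17 and 8.73 on the low arrays. Plasmacytoid markers, a list that holds the interferon-inducible Bst2, summed to 59.6 to 60.3, against 55.6 and 59.2, and erythroid and platelet markers to 37.8 to 39.4, against 36.6 and 37.3. Between 1 and 5 markers of each of these 4 lists lay below the filter level on an array. The part of these cells in the split was not tested.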

How the data were processed

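RNA of sorted cDC1 was measured on Affymetrix arrays. The authors deposited log2 values of 35556 transcript clusters on 35 arrays, made with Expression Console and RMA, per the submitters' processing notes, with versions not given in the sources used here. RMA evens out distributions between arrays, so values are relative to the other transcripts of an array. Spike-ins named in the design were found under 0 annotated names. The 21789 clusters with 1 symbol gave 19938 genes, and the cluster with the highest mean over all arrays stood for a gene. Another 1621 clusters had several symbols and 12146 were not listed in the annotation. A gene passed the filter at or above the 30th percentile of named clusters on at least 2 of the 5 wild-type arrays.

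Scores, gaps and counts were computed in Python 3.11.15 with numpy 2.4.6 and pandas 2.3.3. The gap rule was tested on simulated data. As the arrays were split by a readout, no test, p-value or group mean was computed between the sides. Single outlying arrays were sought with Dixon's ratio. Members and the 30 gene lists were chosen with earlier results of these data known. Genes were named from the widest gaps of each list, the 10 widest gaps in each direction and a set of 20 genes of prior interest. The precision is limited by the 5 arrays. Alternatives changed the score, the scaling, the filter, the gap and the arrays. Promoter and microRNA sequences are from RefSeq tables of GRCm38.p6.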

Additional observations from a re-analysis of the deposited data

Results flagged for a closer look

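Within each group of 5 arrays, the highest and the lowest value were set against Dixon's critical value of 0.71, and chance alone marks about 1 set in 20. Of 288 sets of 5 values examined, over the genes named and the list means, 12 (4.17%) stood out. Many genes were named for a wide gap between the 3 high and the 2 low arrays. Such a gap leaves little room for 1 outlying wild-type array, so this share cannot be compared with that of chance. On wild-type array 1 alone, far below the other 4 wild-type arrays, lay Bst2 at 9.70, Ifitm3 at 11.39, Irf7 at 10.57, Isg20 at 7.96, Cd8a at 9.71, the neutrophil marker S100a8 at 5.59 and the mean of plasmacytoid dendritic cell markers at 6.17. The B cell marker Ms4a1 was 6.13 on wild-type array 1, above the other 4. Among the KO arrays, Mycl stood at 8.87 on library 3, above the other 4. The mean of oxidative phosphorylation genes was 9.66 on the same library, above the others. On KO array 2 the mean of homeostatic and migratory maturation genes was 10.29, above the others. Hepacam2 was 6.41 on KO array 1, below the others.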

How the results depend on the processing

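No paired analysis was possible because the values come from no test. The gap of 2.71 between the third and the fourth array of the ranking score was 2.72 without the array median, 2.73 with the median of the ranking genes, 2.72 after quantile normalization of set 3 and 1.17 with the interferon-stimulated gene list. All 4 settings gave the same full order. Without 1 array at a time it ranged from 2.71 to 3.97. The 269 higher and 67 lower genes were 744 and 798 at a gap of 0.5, and 3215 and 4692 at any gap above 0. Centring, quantile normalization, both filters and the choice of the lowest cluster left them within 1.5 times, at 265 to 269 and 63 to 67. Without 1 array at a time the counts ranged from 273 to 441 and from 68 to 256, the highest being without array 4 and the lowest without array 5. A gap is taken between the nearest arrays, so leaving an array out can only keep or widen it. Apart from changes in the filter, these counts and the gap of the score could therefore not fall below their main values. Signal near the filter level limits what low genes can show.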
